A study of Rattus norvegicus with 16 samples.

Results

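The genes described here encode the Wnt ligands, the receptors and co-receptors that bind them, and the R-spondins and their receptors. They also encode proteins inside the cell that carry the signal or, like Apc and Nkd1, restrain it. Secreted Wnt antagonists are left out of the list. The genes were taken from a list of 50 genes by symbol, and 46 of them had an array row that named 1 gene, among 17245 genes tested. Wnt3a, Fzd3, Fzd7 and Tcf7l2 were not analysed here. RNA of the cells left on commercially pure titanium implants after rinsing was hybridised to Affymetrix Rat Gene 1.1 ST arrays, and the implants came from the tibiae of male Sprague Dawley rats. The 4 groups were AT-I day 4, AT-I day 2, AT-II day 4 and AT-II day 2, where AT-I is a surface with nanoscale features, AT-II is a microrough surface without them, and the day counts from implant placement. Each group had 4 arrays. Both surfaces were placed in each rat, on opposite sides, a sample pooled the 2 implants of 1 tibia, and 4 rats were used per day, so the days hold different rats. All groups share the surgery and the analgesic given after it, no unoperated bone is among the samples, and the labels give no age. Values are on the log2 scale, so a difference of 1 is a 2-fold change.

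Wnt proteins are lipid-modified by Porcn, carried to the cell surface by Wls and bound there by Frizzled receptors together with the co-receptors Lrp5 and Lrp6. Binding stops the degradation of beta-catenin by a complex of Axin, Apc and Gsk3b, and beta-catenin then acts in the nucleus with the TCF and LEF factors. In bone this signal is known for its role in osteoblast formation, and loss of LRP5 function lowers bone mass in humans and mice. R-spondins bind Lgr4, Lgr5 and Lgr6 and keep Frizzleds at the cell surface, which strengthens the signal.

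Promoters of 4 of the genes are shown. Lgr4 and Tcf7 had the largest and the third largest rise on AT-I, and Axin2 and Nkd1 are feedback genes known as targets of the pathway. Each window runs from 250 bases before to 50 after the gene's start, 5′ to 3′ on the gene's strand, from RefSeq with build GRCr8. The positions are chr3:116901718-116902017 (plus strand) for Lgr4, chr10:36954230-36954529 (minus strand) for Tcf7, chr10:94398535-94398834 (plus strand) for Axin2 and chr19:34722797-34723096 (minus strand) for Nkd1. Capitals mark CTTTGA, the core letters bound by TCF and LEF factors, which was searched on both strands.
Lgr4: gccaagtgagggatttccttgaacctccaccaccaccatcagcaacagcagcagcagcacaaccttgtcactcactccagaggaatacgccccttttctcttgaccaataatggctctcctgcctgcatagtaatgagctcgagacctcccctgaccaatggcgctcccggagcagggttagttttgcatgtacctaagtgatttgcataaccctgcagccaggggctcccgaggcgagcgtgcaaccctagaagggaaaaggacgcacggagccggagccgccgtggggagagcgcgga
Tcf7: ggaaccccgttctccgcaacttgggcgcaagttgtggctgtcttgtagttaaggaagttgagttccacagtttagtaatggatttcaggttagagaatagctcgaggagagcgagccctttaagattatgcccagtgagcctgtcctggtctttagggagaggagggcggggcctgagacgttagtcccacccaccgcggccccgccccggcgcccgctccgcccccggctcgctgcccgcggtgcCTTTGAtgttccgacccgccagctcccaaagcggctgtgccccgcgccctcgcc
Axin2: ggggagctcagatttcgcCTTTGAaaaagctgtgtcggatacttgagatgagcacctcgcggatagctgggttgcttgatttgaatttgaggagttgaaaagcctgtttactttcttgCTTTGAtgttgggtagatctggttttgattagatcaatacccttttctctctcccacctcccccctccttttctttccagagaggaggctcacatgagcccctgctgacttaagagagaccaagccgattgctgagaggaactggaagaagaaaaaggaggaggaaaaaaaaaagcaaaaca
Nkd1: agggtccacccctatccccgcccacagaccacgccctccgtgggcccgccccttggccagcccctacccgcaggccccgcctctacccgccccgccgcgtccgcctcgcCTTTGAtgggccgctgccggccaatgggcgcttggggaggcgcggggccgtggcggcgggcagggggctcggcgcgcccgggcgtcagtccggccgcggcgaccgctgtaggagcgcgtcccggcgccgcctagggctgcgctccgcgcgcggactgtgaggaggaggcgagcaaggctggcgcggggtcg
Of the 46 genes, 35 had a promoter in the table, and 3 of these windows (8.57%) held CTTTGA, those of Axin2, Nkd1 and Tcf7. Of the 14117 promoters of genes tested, 13.8% held it, and of all 27457 promoters in the table, 15.9%. The longer CTTTGAT, which contains the shorter motif, was in the same 3 windows. It was in 3.08% of the promoters of genes tested and in 3.62% of all promoters. A match is a description of the letters and shows no binding.

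Of the 120 array pairs, the closest was that of replicates 2 and 3 of AT-II day 2. Over the 10% of rows that varied most among bright rows, their difference had an SD of 0.085, against at least 0.291 in other pairs, and they were averaged and counted as 1 sample. AT-II day 2 therefore had n = 3, given below in the order replicate 1, the averaged pair and replicate 4. The closest of the other pairs, AT-I day 4 replicate 2 and AT-II day 4 replicate 4, come from different surfaces and were kept apart. The interquartile range over genes was 2.60 to 3.41 on AT-I day 4, 2.48 to 2.98 on AT-I day 2, 3.10 to 3.42 on AT-II day 4 and 3.05 to 3.41 on AT-II day 2. The cells were not sorted, and the labels give their type only as tibial. Averages of 9 osteoblast lineage markers lay at 10.2 to 10.8 per sample on AT-I day 4, 7.14 to 8.28 on AT-I day 2, 10.2 to 10.9 on AT-II day 4 and 7.31 to 8.67 on AT-II day 2. In such mixed samples, a change in the number of cells of a type and a change in RNA per cell cannot be told apart. Rows of different genes are not compared in level, since each row has its own probes.

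The comparison of day 4 with day 2 asked how the adherent cells changed as healing went on. On the nanofeatured AT-I, 18 of the 46 Wnt genes rose and 1 fell by limma's test at an adjusted p under 0.05 over all genes. That is 39.1% higher and 2.17% lower, against a background of 8.84% of all genes called higher and 2.66% called lower. On AT-II 7 rose and 0 fell, or 15.2% higher against 3.13% of all genes (0.203% of all genes were called lower). In either direction 11.5% of all genes were called on AT-I and 3.33% on AT-II. An unadjusted p under 0.05 was reached by 25 of the Wnt genes on AT-I and 21 on AT-II, beside 27.9% and 13% of all genes. Every day 4 sample was above every day 2 sample for 18 genes on AT-I and 18 on AT-II (11.3% and 8.74% of all genes), and below it for 2 and 1 (4.01% and 7.63%). The median difference of the 46 genes was 0.31 on AT-I and 0.19 on AT-II, against -0.05 on each surface for all genes. Only 5 genes rose on both surfaces, namely Lgr4, Lrp4, Lrp5, Dvl1 and Tcf7, while 14 were called on AT-I alone and 2 on AT-II alone. The difference between the surfaces' time courses was tested for every gene and passed for 0 of the 46, so a call on a single surface does not show that the surfaces differed. When arrays were centred on their medians, 13 of the Wnt genes rose and 1 fell on AT-I, and Wnt5b, Fzd4, Ror2, Dvl1 and Nkd2 lost their AT-I calls. There the centring gave a median over all genes of -0.21, against -0.05 without it, and 39.7% of all calls were higher, against 76.9%. On AT-II it left 5 Wnt genes higher, and 72.2% of all calls were higher, against 93.9% without it.

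**Figure D1:**
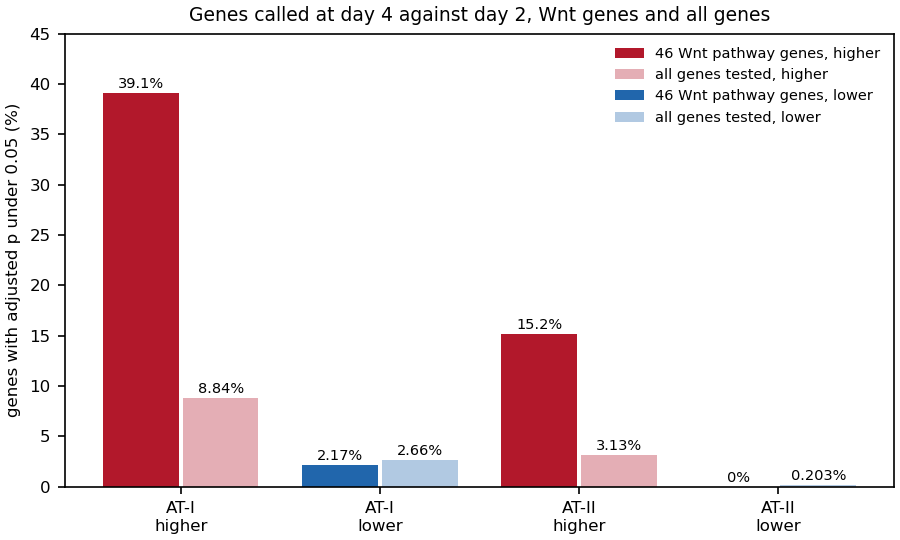
Percentage of genes with an adjusted p under 0.05 at day 4 against day 2, for the 46 Wnt genes (full colour) and all 17245 genes tested (pale), by surface and direction. The Wnt genes had 39.1% called higher on AT-I and 15.2% on AT-II, against 8.84% and 3.13% of all genes.

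The receptors of R-spondins gave the largest rise in the list. Lgr4, which binds R-spondins and is made in bone by osteoblasts and osteoclasts among other cells, was at 8.95, 8.54, 8.42 and 9.10 on AT-I day 4 and at 6.38, 6.58, 6.74 and 6.42 on AT-I day 2. On AT-II it was at 9.18, 8.56, 8.81 and 8.46 at day 4 and at 6.35, 7.14 and 7.41 at day 2. Every day 4 sample lay above every day 2 sample on each surface, by more than 1. Lgr4 rose by 2.22 ± 0.22 (SE) on AT-I (4.67-fold, adjusted p = 2.67e-05, n = 4 and 4) and by 1.79 ± 0.24 on AT-II (3.45-fold, adjusted p = 0.000462, n = 4 and 3). Its 2 relatives did not pass: Lgr5, known as a stem cell marker of the gut, differed by -0.29 ± 0.17 on AT-I and -0.19 ± 0.18 on AT-II, and Lgr6 by -0.26 ± 0.16 and -0.09 ± 0.18. Both rows were dim, with means under 6 (5.845 and 5.492), where the file gives no detection call. Among cell markers over the same days, all 9 osteoblast lineage genes rose on AT-I and 8 on AT-II. Of 4 measured osteoclast markers, 2 rose on AT-I and 0 on AT-II, and of 5 stromal markers 2 and 1. Over all genes, 8.84% were called higher on AT-I and 3.13% on AT-II. The osteoclast markers did not all go the same way, with differences from -0.74 to 2.18 on AT-I and from -0.42 to 1.90 on AT-II. The osteoclast list averaged 8.14 to 9.04 on AT-I day 4, 6.75 to 7.96 on AT-I day 2, 8.25 to 8.63 on AT-II day 4 and 6.96 to 8.01 on AT-II day 2. The part of these cell types in the rise of Lgr4 was not tested.

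Among the R-spondins, Rspo3 rose on AT-I. It was at 7.40, 7.43, 7.85 and 7.62 on AT-I day 4 and at 6.37, 6.70, 6.45 and 6.49 on AT-I day 2, with no overlap, a rise of 1.07 ± 0.23 (2.10-fold, adjusted p = 0.00669). On AT-II the groups overlapped, with 7.29, 6.94, 8.28 and 7.47 at day 4 and 6.40, 6.57 and 7.09 at day 2. The AT-II difference of 0.81 ± 0.25 did not pass (adjusted p = 0.106). Rspo1 differed by 0.25 ± 0.17 on AT-I and 0.02 ± 0.18 on AT-II, and Rspo2 by -0.05 ± 0.18 and 0.47 ± 0.19, none of which passed.

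Of the 5 co-receptors, 4 rose on AT-I and 2 on AT-II, beside 8.84% and 3.13% of all genes called higher. Lrp4, which binds the antagonist sclerostin in bone, was at 8.44, 8.30, 7.83 and 8.47 on AT-I day 4 and at 6.69, 7.41, 6.69 and 7.12 on AT-I day 2. On AT-II it was at 8.73, 8.46, 8.33 and 8.30 at day 4 and at 7.18, 7.53 and 7.63 at day 2. No day 4 value fell within the range of day 2, and Lrp4 rose by 1.28 ± 0.19 on AT-I (2.43-fold, adjusted p = 0.000404) and by 1.00 ± 0.20 on AT-II (2.01-fold, adjusted p = 0.01). Lrp5, the co-receptor tied to bone mass, was at 8.17, 8.11, 7.67 and 8.31 on AT-I day 4 and at 6.57, 6.98, 7.04 and 7.00 on AT-I day 2. Its AT-II values were 8.48, 8.10, 8.17 and 8.10 at day 4 and 7.25, 7.42 and 7.37 at day 2. The groups did not overlap, with a rise of 1.17 ± 0.15 on AT-I (2.24-fold, adjusted p = 0.000146) and 0.86 ± 0.16 on AT-II (1.82-fold, adjusted p = 0.00635). The AT-II calls of Lrp4 (0.87, adjusted p = 0.0863) and Lrp5 (0.82, adjusted p = 0.05) ended when AT-II day 2 replicate 1 was left out.

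Lrp6, the close relative of Lrp5, spanned 9.07 to 9.32 on AT-I day 4 and 8.39 to 8.64 on AT-I day 2, and rose by 0.69 ± 0.12 (adjusted p = 0.00139). On AT-II it spanned 9.08 to 9.44 at day 4 and 8.67 to 8.89 at day 2, also with no overlap, but its difference of 0.46 ± 0.13 did not pass (adjusted p = 0.0634). The receptor tyrosine kinases Ror1 and Ror2 bind Wnt5a and act without beta-catenin. Ror2 rose by 0.54 ± 0.15 on AT-I (adjusted p = 0.0301). It spanned 6.85 to 7.35 at day 4 and 6.33 to 6.83 at day 2 there, so the groups nearly touched. Leaving out AT-I day 2 replicate 1, 2 or 4 or AT-I day 4 replicate 1 or 3 ended the call. Repeating quantile normalization or fitting only the AT-I groups also ended it. Ror1 differed by 0.43 ± 0.14 (adjusted p = 0.055), just outside the threshold. On AT-II neither passed, with 0.14 ± 0.16 for Ror2 and 0.18 ± 0.15 for Ror1.

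Of the 7 Frizzleds measured, 4 rose on AT-I and 1 on AT-II, beside 8.84% and 3.13% of all genes called higher. On AT-I Fzd2 spanned 7.22 to 8.01 at day 4 and 6.27 to 7.02 at day 2 and rose by 0.91 ± 0.20 (adjusted p = 0.0076). Fzd8 spanned 6.67 to 7.21 and 6.04 to 6.51 and rose by 0.76 ± 0.15 (adjusted p = 0.00446), and Fzd1 spanned 6.56 to 6.64 and 5.59 to 6.12 and rose by 0.75 ± 0.15 (adjusted p = 0.00456). These 3 receptors showed no overlap between the days (11.3% of all genes were higher in that way) and kept their call in every other setting run. Fzd4, which also binds norrin in retinal vessels, rose by 0.62 ± 0.17 with overlapping groups (6.78 to 7.38 at day 4 and 6.25 to 6.91 at day 2, adjusted p = 0.0312). Leaving out any 1 of 5 AT-I samples (day 2 replicate 1 or 3, day 4 replicate 1, 2 or 4) ended its call. Repeating quantile normalization, fitting only the AT-I groups or taking the interquartile range as a covariate also ended it.

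On AT-II, Fzd1, Fzd2, Fzd4 and Fzd8 differed by 0.53 to 0.75 without overlap between the days, and none passed (adjusted p = 0.0827 for Fzd2 to 0.13 for Fzd4). Over all genes, 8.74% were higher without overlap on AT-II. Fzd6 passed there alone, at 5.92, 5.89, 5.63 and 5.63 on AT-II day 4 and 5.08, 5.07 and 5.39 on AT-II day 2, a rise of 0.59 ± 0.15 (adjusted p = 0.0345). Its row was dim, with a mean of 5.54, under 6. The call ended when any 1 of 5 AT-II samples was left out: day 2 replicate 1, the averaged day 2 pair, or day 4 replicate 1, 2 or 3. Centring arrays on their medians, repeating quantile normalization or fitting only the AT-II groups also ended it. On AT-I the Fzd6 difference was 0.31 ± 0.13 (adjusted p = 0.146). Fzd5 and Fzd9 passed on neither surface, at 0.30 ± 0.16 and -0.16 ± 0.17 on AT-I and 0.20 ± 0.18 and 0.24 ± 0.18 on AT-II.

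**Figure D2:**
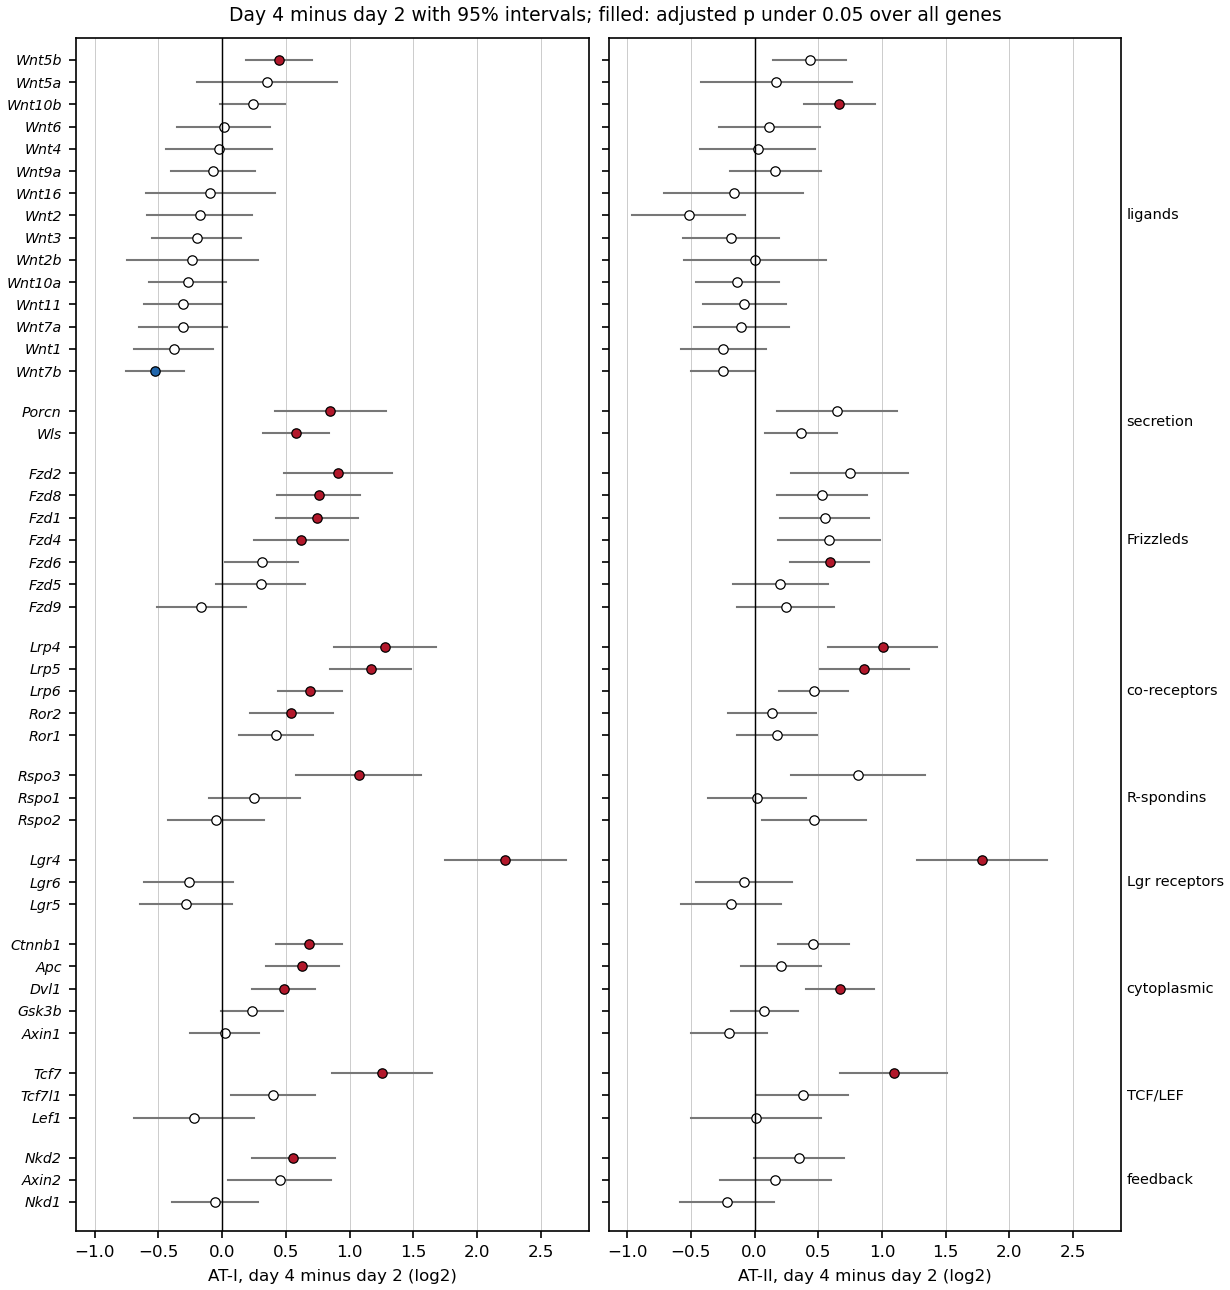
Difference between day 4 and day 2 on the log2 scale for the 46 genes, grouped by role, on AT-I (left) and AT-II (right); points are estimates, lines are 95% intervals not adjusted for the number of genes, and filled points had an adjusted p under 0.05. Lgr4 lies farthest to the right on both surfaces (2.22 and 1.79). Of 15 ligands, 13 had no call on AT-I and 14 had none on AT-II, and Wnt7b is the only gene called lower, on AT-I.

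Of 15 Wnt ligands measured, 1 rose and 1 fell on AT-I and 1 rose on AT-II. Each is 6.67% of the ligands, beside 8.84% of all genes higher and 2.66% lower on AT-I and 3.13% higher on AT-II, and 13 of the 15 had a mean under 6, in the dim part of the arrays, where the file gives no detection call. For the ligands the median difference was -0.18 on AT-I and -0.08 on AT-II. Wnt7b, a ligand that promotes bone formation in mice, was at 5.23, 5.12, 5.25 and 5.28 on AT-I day 4 and at 5.67, 5.84, 5.72 and 5.77 on AT-I day 2, every day 4 value lying below every day 2 value. It fell by 0.53 ± 0.11 (adjusted p = 0.00458), and the call was lost when quantile normalization was repeated. On AT-II Wnt7b was at 5.16, 5.17, 5.29 and 5.19 at day 4 and at 5.71, 5.32 and 5.34 at day 2, a difference of -0.25 ± 0.12 (adjusted p = 0.369). Here the groups also did not overlap, and replicate 1 stood above the other day 2 samples.

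Wnt10b, whose loss lowers bone mass in mice, was at 5.62, 6.0, 5.72 and 5.75 on AT-II day 4 and at 5.18, 5.09 and 5.05 on AT-II day 2. Every day 4 value was higher, with a rise of 0.67 ± 0.13 (1.59-fold, adjusted p = 0.00821) that was lost only when arrays were centred on their medians. On AT-I it was at 5.37, 5.55, 5.66 and 5.56 at day 4 and at 5.16, 5.49, 5.43 and 5.10 at day 2, with overlap and a difference of 0.24 ± 0.12 (adjusted p = 0.209). Wnt5b, a ligand mostly studied in cartilage and beta-catenin-independent signalling, rose on AT-I by 0.45 ± 0.12 (5.92 to 6.26 at day 4 and 5.44 to 5.78 at day 2, adjusted p = 0.029). Leaving out AT-I day 2 replicate 1 or 3 or AT-I day 4 replicate 1 or 2 ended that call. Fitting only the AT-I groups or taking the interquartile range as a covariate also ended it. On AT-II the Wnt5b difference was close in size, 0.43 ± 0.13, and did not pass (adjusted p = 0.111). Wnt5a, which signals through Ror2, differed by 0.35 ± 0.26 on AT-I and 0.17 ± 0.28 on AT-II. The other 11 ligands passed on neither surface, with differences from -0.38 ± 0.14 (Wnt1) to 0.01 ± 0.17 (Wnt6) on AT-I. On AT-II they ran from -0.52 ± 0.21 (Wnt2, mean 6.40) to 0.16 ± 0.17 (Wnt9a). Of these ligands, Wnt11 was lower at day 4 without overlap on AT-I (-0.31 ± 0.14), as were 4.01% of all genes. Over the whole list, 18 of 46 genes had a mean under 6.

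Both genes of ligand secretion rose on AT-I, where 8.84% of all genes were called higher. Porcn, the acyltransferase of Wnt proteins, spanned 6.42 to 7.37 at day 4 and 5.78 to 6.24 at day 2 and rose by 0.85 ± 0.20 (adjusted p = 0.0135), a call that ended without AT-I day 4 replicate 4. Wls, the carrier of Wnt proteins to the cell surface, spanned 8.38 to 8.57 and 7.65 to 8.19 and rose by 0.58 ± 0.12 (adjusted p = 0.00601), a call that was lost when quantile normalization was repeated. On AT-II both genes again showed no overlap between the days, at 0.65 ± 0.22 and 0.36 ± 0.13, and neither passed. There 8.74% of all genes were higher without overlap.

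In the cytoplasm, beta-catenin itself rose on AT-I. Ctnnb1 was at 11.25, 11.07, 11.02 and 11.42 on AT-I day 4 and at 10.35, 10.56, 10.62 and 10.50 on AT-I day 2, which did not overlap (0.68 ± 0.12, 1.60-fold, adjusted p = 0.00194). On AT-II it was at 11.33, 11.07, 11.31 and 11.18 at day 4 and at 10.57, 10.79 and 10.92 at day 2, again without overlap, but the difference of 0.46 ± 0.13 did not pass (adjusted p = 0.0782). Beta-catenin is regulated mainly through its protein's stability, which an array does not measure. Dvl1, which relays the signal from Frizzleds, was at 6.98, 7.08, 6.86 and 6.95 on AT-I day 4 and at 6.27, 6.64, 6.47 and 6.55 on AT-I day 2, and rose by 0.48 ± 0.12 (adjusted p = 0.0143). That call was lost when arrays were centred on their medians (0.32), with only the AT-I groups in the fit and with the interquartile range as a covariate. On AT-II, at 7.48, 7.44, 7.20 and 7.12 at day 4 and 6.54, 6.67 and 6.70 at day 2, it rose by 0.67 ± 0.13 (adjusted p = 0.00635), a call that ended when AT-II day 2 replicate 1 was left out (0.62, adjusted p = 0.0527).

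Of the destruction complex, Apc, a scaffold, rose on AT-I by 0.63 ± 0.14 (8.01 to 8.57 at day 4 and 7.53 to 7.89 at day 2, adjusted p = 0.00677) and had 0.21 ± 0.15 on AT-II (adjusted p = 0.629). Axin1, the other scaffold, differed by 0.02 ± 0.13 on AT-I and -0.20 ± 0.14 on AT-II. For the kinase Gsk3b the values were 0.23 ± 0.11 and 0.08 ± 0.12, and neither gene passed on either surface.

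Of the nuclear factors, Tcf7, which encodes TCF-1, rose on both surfaces, with 7.90, 8.22, 7.78 and 7.62 on AT-I day 4 and 6.21, 7.04, 6.39 and 6.86 on AT-I day 2. On AT-II it was at 7.94, 7.79, 8.28 and 7.98 at day 4 and at 6.73, 6.95 and 7.04 at day 2. The days did not overlap, with a rise of 1.25 ± 0.18 on AT-I (2.39-fold, adjusted p = 0.000413) and 1.09 ± 0.20 on AT-II (2.13-fold, adjusted p = 0.00517). Tcf7 and Lgr4 were the 2 genes that passed on AT-II in every other setting run. TCF-1 is also known from T cells, whose 6 markers had 0 calls in either time comparison and median differences of 0.18 on AT-I and 0.20 on AT-II. The T cell list averaged 7.27 to 7.94 on AT-I day 4, 6.71 to 7.84 on AT-I day 2, 7.52 to 7.95 on AT-II day 4 and 7.17 to 7.91 on AT-II day 2. The part of T cells in the rise of Tcf7 was not tested. Lef1, the related factor of lymphoid and osteoblast precursors, was at 7.69, 7.87, 7.34 and 7.85 on AT-I day 4 and at 7.93, 8.22, 7.33 and 8.16 on AT-I day 2. On AT-II it was at 7.93, 7.43, 7.90 and 8.17 at day 4 and at 7.39, 8.18 and 7.98 at day 2. The days overlapped widely, and the differences of -0.22 (95% interval -0.69 to 0.25) and 0.01 (95% interval -0.50 to 0.52) did not pass. Tcf7l1, mostly a repressor, differed by 0.40 ± 0.16 on AT-I and 0.38 ± 0.17 on AT-II on its brightest row and did not pass. It has 3 rows, which gave 0.40, 0.74 and 0.29 on AT-I and 0.38, 0.57 and 0.43 on AT-II, and their mean passed on both surfaces.

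The feedback genes are widely read as indicators of beta-catenin activity. Axin2 was at 6.53, 6.69, 5.77 and 5.99 on AT-I day 4 and at 5.68, 6.15, 5.61 and 5.73 on AT-I day 2. On AT-II it was at 6.16, 6.27, 6.15 and 6.49 at day 4 and at 5.95, 6.29 and 6.06 at day 2. The days overlapped on both surfaces, and Axin2 differed by 0.45 ± 0.19 on AT-I (95% interval 0.05 to 0.85, adjusted p = 0.135) and 0.16 ± 0.20 on AT-II (-0.27 to 0.60, adjusted p = 0.826). Without AT-I day 4 replicate 3, which lay below the others of its group, Axin2 passed on AT-I at 0.61. Of 28 other settings this was the only 1 that called it, and 17.1% of all genes passed on AT-I there, against 11.5% in the fit reported. Nkd1, an inhibitor that binds Dishevelled proteins, differed by -0.06 ± 0.16 on AT-I and -0.22 ± 0.17 on AT-II. Its relative Nkd2 rose on AT-I by 0.56 ± 0.15 (7.28 to 7.59 at day 4 and 6.44 to 7.18 at day 2, adjusted p = 0.0271). That call ended without any 1 of AT-I day 2 replicates 1 and 3 and AT-I day 4 replicates 1, 2 and 4. Repeating quantile normalization, fitting only the AT-I groups or taking the interquartile range as a covariate also ended it. Nkd2 did not pass on AT-II (0.35 ± 0.17). Of the 3 promoters with the core letters shown above, those of Axin2 and Nkd1 belong to genes without a call and that of Tcf7 to a gene that rose on both surfaces. Genes called higher on AT-I had 13 promoters in the table, and 1 of these held the letters.

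**Figure D3:**
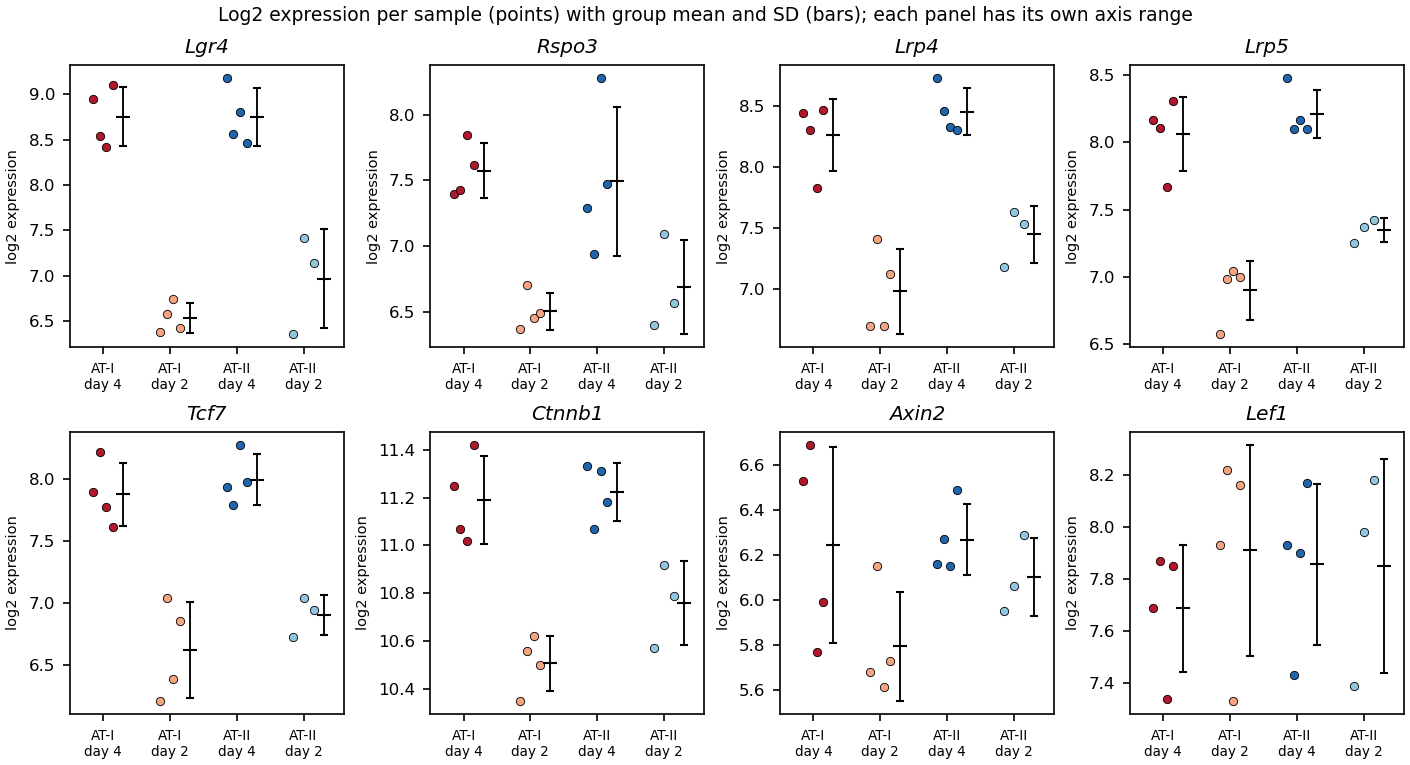
Log2 expression of 8 genes in every sample of AT-I day 4, AT-I day 2, AT-II day 4 and AT-II day 2; points are samples (the averaged pair is 1 point), bars are the mean and SD, and each panel has its own vertical range. For Lgr4, Lrp4, Lrp5, Tcf7 and Ctnnb1 the days do not overlap on either surface, while for Axin2 and Lef1 they do.

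Among the 18 genes called higher on AT-I, the same samples were often the lowest of their group. Of the 18 genes called higher on AT-I, 12 had their lowest AT-I day 2 value in replicate 1, and 14 had their lowest AT-II day 2 value in replicate 1. These were also the samples with the lowest osteoblast marker averages of their groups, 7.14 and 7.31. At day 4, AT-I replicate 3 was lowest for 10 of the 18, and AT-II replicate 4 was also lowest for 10 of the 18. The 18 genes were chosen by their AT-I values, so these counts cannot show that the samples were low in general. Over all 46 genes, AT-I day 2 replicate 1 was lowest for 16 and highest for 8. AT-II day 2 replicate 1 was lowest for 20 and highest for 15. AT-I day 4 replicate 3 was lowest for 19 and highest for 11, and AT-II day 4 replicate 4 for 18 and 7. The interquartile range over genes of AT-I day 4 replicate 3, 2.60, was the smallest of its group. That of AT-II day 4 replicate 4, 3.42, was the largest of its group. At day 2, replicate 1 had the smallest range on AT-II (3.05), while on AT-I replicate 3 (2.48) lay below replicate 1 (2.53). The part of these samples' marker levels and array spread in the results was not tested. With both day 2 samples numbered 1 left out, 15 genes passed on AT-I and 5 on AT-II, beside 8.81% and 1.94% of all genes. Leaving out AT-II day 2 replicate 1 alone left 3 on AT-II, which were Lgr4, Tcf7 and Wnt10b, beside 1.29% of all genes. With all 16 arrays counted separately, 15 genes rose on AT-II, where 4.92% of all genes passed. In the fit reported, 11.5% of all genes passed on AT-I and 3.33% on AT-II, so the calls over all genes moved in the same direction.

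The counts of other pathway genes and of markers stand beside the same shares of all genes, 8.84% higher and 2.66% lower on AT-I and 3.13% higher and 0.203% lower on AT-II. Of 16 measured genes from a list of beta-catenin targets, 6 rose and 0 fell on AT-I and 5 rose on AT-II. The receptor Tnfrsf19 rose by 1.56 ± 0.18 and 1.24 ± 0.19, the osteoblast factor Runx2 by 1.27 ± 0.17 and 1.34 ± 0.18, the matricellular gene Ccn4 by 1.82 ± 0.26 and 1.70 ± 0.28, and Tnfrsf11b, which encodes osteoprotegerin, by 1.5 ± 0.24 and 1.22 ± 0.26, on AT-I and AT-II in that order. Several of these genes are also used as osteoblast markers. Of 29 other components of the beta-catenin pathway, 8 rose on AT-I and 3 on AT-II, with the nuclear cofactor Pygo1 at 1.51 ± 0.17 and 1.19 ± 0.18. Among 24 genes of planar polarity and beta-catenin-independent signalling, 4 rose and 1 fell on AT-I and 2 rose on AT-II, and Prickle1 had 1.15 ± 0.13 and 0.97 ± 0.14. The Wnt receptor Ryk, from the same list, rose by 1.21 ± 0.15 on AT-I and 0.70 ± 0.17 on AT-II. Of 12 secreted antagonists, 5 rose on AT-I and 3 on AT-II. The antagonist Dkk1 rose by 2.60 ± 0.31 on AT-I and 2.70 ± 0.33 on AT-II, and Dkk3 by 1.14 ± 0.13 and 0.79 ± 0.14. Among markers of other cells, 2 of 5 stromal genes rose on AT-I and 1 on AT-II, 1 of 7 neutrophil and 1 of 6 monocyte and macrophage genes fell on AT-I with 0 on AT-II, and 0 endothelial, B lineage or erythroid genes passed on either surface (4, 3 and 4 measured).

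Setting the 2 surfaces against each other asked whether nanoscale features altered these genes. At day 4, 0 of the 46 genes passed, nor did any of all genes tested (0%), and 2 of the 46 had an unadjusted p under 0.05, against 3.98% of all genes. Dvl1 was at 6.98, 7.08, 6.86 and 6.95 on AT-I day 4 and at 7.48, 7.44, 7.20 and 7.12 on AT-II day 4, lower on AT-I in every sample, the only gene of the 46 so separated at day 4 (1.41% of all genes were lower and 0.789% higher in that way; -0.34 ± 0.12, adjusted p = 0.913). Fzd4 differed by -0.42 and Tcf7l1 by 0.32, both with overlap and an adjusted p of 0.913. For the genes with the largest rises over time, the intervals at day 4 included 0. Lgr4 had 8.75 ± 0.326 on AT-I and 8.75 ± 0.322 on AT-II at day 4 (SD, n = 4 each), and the 95% interval of its difference, -0.47 to 0.47, leaves room for a change of that size. For Lrp4 the difference was -0.20 with an interval of -0.59 to 0.20. The interval was -0.46 to 0.18 for Lrp5 and -0.51 to 0.27 for Tcf7.

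At day 2, 0 of the 46 genes passed with 15 samples (0% of all genes), and 8 had an unadjusted p under 0.05, against 27.3% of all genes. Apc was at 7.68, 7.89, 7.69 and 7.53 on AT-I day 2 and at 8.16, 8.42 and 8.25 on AT-II day 2. All AT-I values were lower, with a difference of -0.58 ± 0.15 (adjusted p = 0.128). Lrp5 differed by -0.45 ± 0.16 and Gsk3b by -0.32 ± 0.12, neither passing. In all, 5 of the genes were lower and 2 higher on AT-I without overlap between the surfaces, or 10.9% and 4.35%, beside 11.3% and 8.83% of all genes. Thus the share of Wnt genes apart at day 2 was near or below that of the whole array. The median difference of the 46 genes was -0.16, beside -0.09 for all genes. The interquartile range over genes was also lower on AT-I day 2 (2.48 to 2.98) than on AT-II day 2 (3.05 to 3.41), and with it as a covariate the medians were -0.03 for the 46 genes and -0.03 for all genes. Its part in the surface differences was not tested. With all 16 arrays counted separately, 3 genes passed at day 2: Wnt7b was higher and Lrp5 and Apc were lower on AT-I, where 12.7% of all genes passed.

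**Figure D4:**
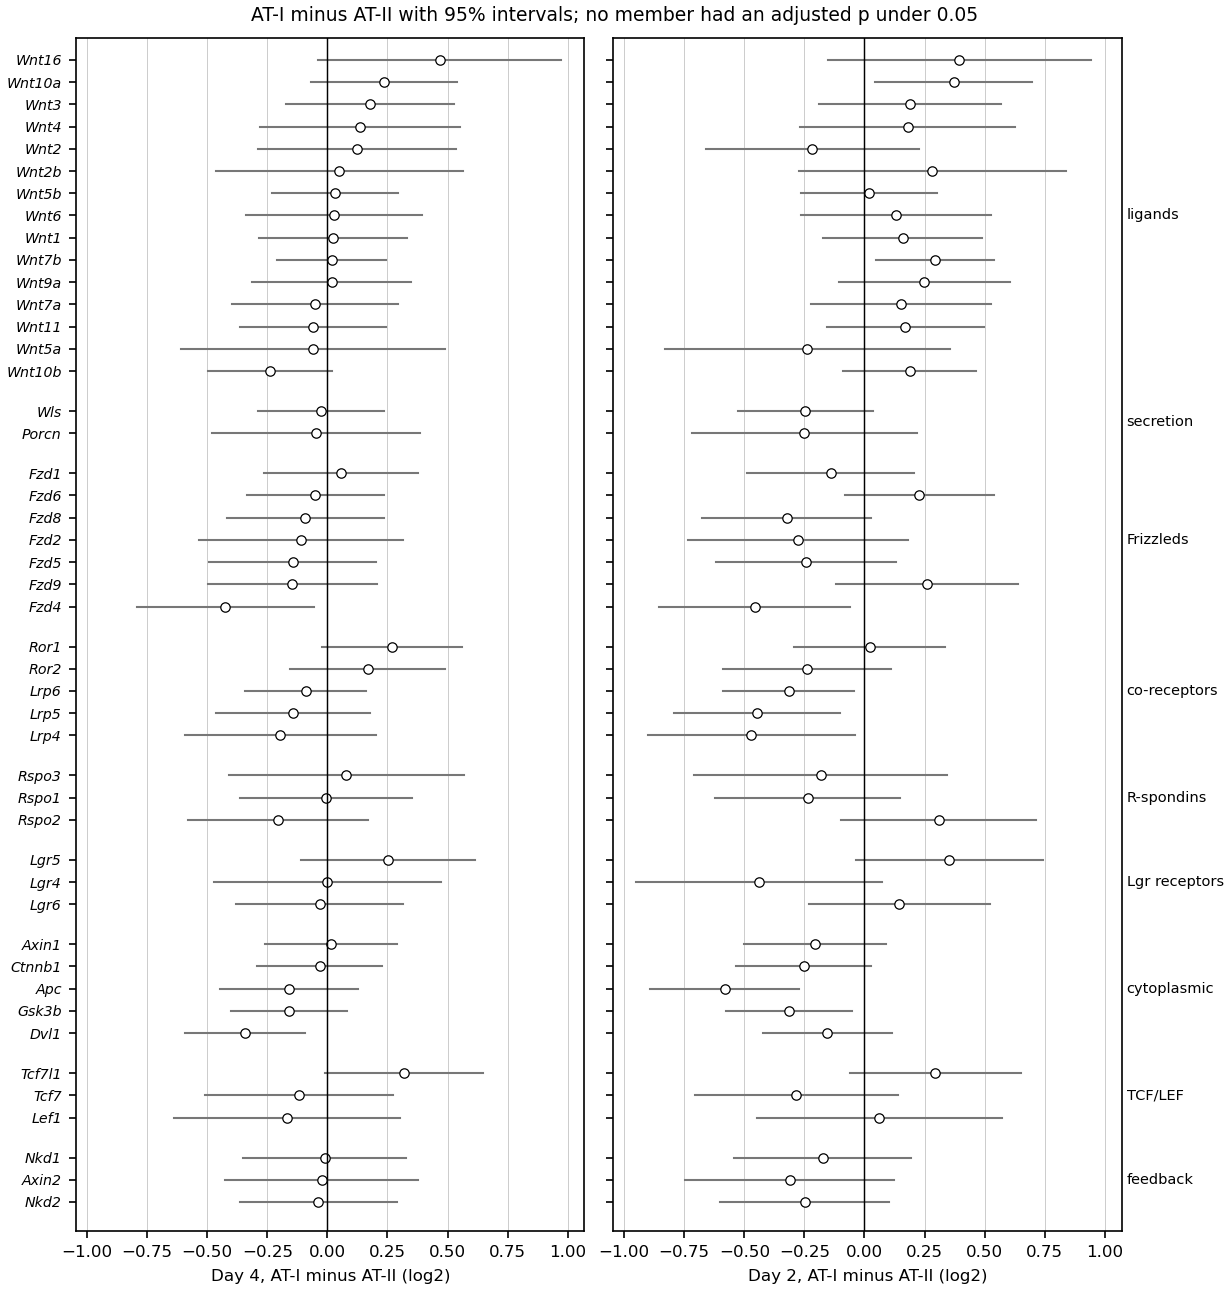
Difference between AT-I and AT-II on the log2 scale for the 46 genes at day 4 (left) and day 2 (right), grouped by role; points are estimates and lines are 95% intervals not adjusted for the number of genes. No gene passed at either day, and the estimates reach from -0.42 to 0.47 at day 4 and from -0.58 to 0.39 at day 2.

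For the difference between the time courses, 0 of the 46 genes and 0% of all genes passed, and 1 of the 46 had an unadjusted p under 0.05, against 4.1% of all genes. That gene was Wnt10b, whose change over time differed by -0.43 ± 0.18 (AT-I minus AT-II, adjusted p = 0.924). Apc (0.42 ± 0.20) and Rspo2 (-0.51 ± 0.26) came next. For Lgr4 the difference of the time courses was 0.44, with a 95% interval of -0.26 to 1.13. Each rat carried both surfaces, so the time courses are not independent of each other.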

How the data were processed

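RNA from implant-adherent cells was hybridised to 16 arrays, per the labels' protocols. The deposited log2 values come from RMA, and the submitters' processing notes also name Affymetrix Expression Console. For versions, filters and build, nothing is stated in the sources used here, and base 2 is inferred from RMA. Rows were named through the platform annotation and the GRCr8 gene table (18460 of 18644 rows found, 0 symbols changed), 962 rows with several gene names and 9608 with no name were set aside, and each gene took its brightest row by mean. Group means were fitted with lmFit and eBayes of limma 3.58.1 under R 4.3.3 (two-sided, 11 residual and 4.44 prior degrees of freedom) over 17245 genes, with Benjamini-Hochberg adjustment, and SE are limma's. The fit was checked on simulated data. Groups came from sample titles. The genes, lists, averaging of 2 arrays, tests and other settings were chosen with earlier results of these data known. Genes called in a time comparison were named with values, the 3 smallest p where none passed, and up to 4 per other list. Replicate numbers are not tied to rats in the labels, so surface tests ignore pairing. The number of arrays limits precision. Altogether 29 other settings were run, 3 of them added after the data were seen. Python 3.11.15 with numpy 2.4.6, scipy 1.17.1 and pandas 2.3.3 drew the figures and searched the promoters.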

Additional observations from a re-analysis of the deposited data

Results flagged for a closer look

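Lrp5 in AT-I day 2 replicate 1 was at 6.57, far from the other samples of its group at 6.98 to 7.04, and Lrp5 still rose on AT-I without it. Wnt2 in AT-I day 4 replicate 3 was at 5.96, against 6.37 to 6.45 in the others. Wnt3 in AT-I day 4 replicate 1 was at 5.49, against 5.19 to 5.23. Wnt2b in AT-II day 4 replicate 4 was at 4.08, against 4.75 to 4.87. Nkd2 in AT-II day 4 replicate 1 was at 7.74, against 7.42 to 7.44. These are 5 of 138 combinations of a gene and a group of 4, where chance gives about 1 in 20, or 6.9. The cause of each was not tested.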

How the results depend on the processing

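Over the settings run, 0 called differences of the 46 genes changed direction. The 19 calls on AT-I became 15 with the interquartile range as a covariate, 14 with only the groups of the comparison and 21 with array weights, and ranged from 15 to 20 when 1 sample was left out. On AT-II the 7 calls became 15 with all 16 arrays counted separately, 17 with array weights and 15 with the day and replicate number as a random replicate block on 16 arrays. Leaving out 1 sample gave 3 to 8 there, with 3 without AT-II day 2 replicate 1. Between the surfaces at day 2 the 0 calls became 3 with 16 arrays (12.7% of all genes), 5 with array weights (21.5%), 8 with the random replicate block (27.3%) and 3 with a fixed replicate block (22.2%), and 0 to 1 when 1 sample was left out, the 1 being Apc without AT-I day 2 replicate 2 (4.12%). With the block and 16 arrays, 0 genes passed at day 4 or in the difference of the time courses, as in the other settings. Deviations of same-numbered samples correlated from -0.17 to 0.67 at day 2 and from -0.22 to 0.46 at day 4, and 2 of 8 AT-I samples had their best match in their own number, so these values do not settle whether the numbers pair the samples, and the fit reported has no block. All genes called were 575 on AT-II in the fit reported, 849 with 16 arrays, 1228 with array weights and 223 without AT-II day 2 replicate 1, and 1983 on AT-I, 1060 with only the groups of the comparison, 1314 with the covariate and 1158 without AT-I day 4 replicate 4. The causes were not tested. Signal over background is not given in the file, so dim rows cannot be bounded.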
